A study of Mus musculus with 6 samples.

Results

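The 40 genes described here drive or mark the cell division cycle and DNA replication, and were picked by symbol from the 23420 gene rows of a bulk RNA-seq series on mouse thymic dendritic cells (DCs). Their role groups are 5 D-type cyclins and partner kinases, 5 E2F and E-type cyclin genes, 8 origin licensing and MCM helicase genes, and 4 DNA synthesis genes. The others are 6 mitotic cyclin and proliferation marker genes, 8 mitotic kinase, checkpoint and ubiquitin ligase genes, and 4 kinetochore and spindle genes. Every one of the 40 had a read in at least 1 library, 31 had a read in all 6 libraries, and 4 never reached 10 counts in any library. A filter on low counts, the same for all genes, left 27 of the 40 for testing. A gene passes it at a set level in 2 or more libraries, so high values in 1 group are enough. The 13 that did not pass were E2f2, Ccne1, Cdk2, Cdc6, Tyms, Ccnb1, Cdk1, Aurka, Birc5, Plk1, Cdc20, Ube2c and Kif11, and these are described without a test.

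The series has 6 libraries in 3 groups of 2, all from the thymus of wild type mice and all given the same batch label. YG+ pDCs were plasmacytoid DCs (CD11c low, B220+) that carried yellow-green fluorescent microspheres. They came from mice that bore a subcutaneous MC38 tumour, a mouse colon carcinoma line, for 12 days before the microspheres were injected into the tumour, and were sorted 2 days after that injection. PBS pDCs, taken through the same gate, and PBS Sirpa+ DCs (CD11c high, Sirpa+), a conventional DC subset, came from PBS-treated mice, also labelled 2 weeks. The labels do not state whether the PBS-treated mice bore a tumour. Tumour (where the PBS-treated mice had none), microsphere injection and selection for carried microspheres cannot be told apart between the YG+ and the PBS pDCs. Each library started from 5 ng of total RNA. The labels do not tell if the 2 libraries of a group stand for different mice. P-values then reflect the spread among these libraries alone, which may be technical.

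A cell enters the cycle when D-type cyclins with CDK4 or CDK6 inactivate the retinoblastoma protein and free the E2F factors. These switch on cyclin E and the genes that license origins and copy DNA. Cyclin A, cyclin B and CDK1 then take the cell into mitosis, where Aurora and Polo kinases, the spindle checkpoint and the anaphase-promoting complex time the separation of chromosomes. Plasmacytoid DCs and conventional DCs leave their cycling progenitors as largely non-dividing cells, and thymocytes, which divide in large numbers, are their neighbours in the thymus. In bulk libraries, fewer cells of a type and less RNA per cell cannot be told apart.

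Depth was low and uneven. Counts assigned to genes ranged from 177844 in PBS pDC replicate 1 to 713966 in YG+ pDC replicate 1, which is 0.842% to 3.36% of the uniquely placed reads. Levels are given in CPM (counts-per-million units) on totals scaled by TMM, a factor that evens out composition, and a gene with no count could stand at up to 4.21 to 19.1 CPM, the level of 3 counts on that scale. These limits and the intervals on shares cover counting error only. PBS pDC replicate 1 stood apart. It had the fewest counts, the lowest share of the ribosomal precursor Rn45s (3.69%, against 7.05% to 12.7%), and a Tsix to Xist count ratio of 20.5 against 2.70 to 11.3 for this pair of antisense transcripts. The 2 PBS pDC libraries also differed most beyond counting noise, with a chi-square per degree of freedom over all genes of 9.20, against 4.71 for the PBS Sirpa+ DCs and 2.52 for the YG+ pDCs. The sort markers followed the labels in sum. The summed level of 11 pDC markers was 5383 to 7814 CPM in the 4 pDC libraries and 1020 and 1180 in the Sirpa+ DC libraries. Siglech, a defining pDC receptor, was at 670.0 CPM or more in the former and at 46.6 or less in the latter. Sirpa itself was at 575 and 748 CPM in the Sirpa+ DCs and at 198 to 392 in the pDCs. Its edgeR adjusted p was 0.0754 for PBS pDCs and 0.226 for YG+ pDCs against the Sirpa+ DCs. The summed level of 11 conventional DC markers was 14210 and 15740 CPM in the Sirpa+ DCs and 3858 to 4687 in the pDCs. Of these markers, 9 were lower in both PBS pDC libraries than in both Sirpa+ DC libraries, among them Xcr1 and Clec9a. Clec10a was higher (102 and 171 CPM, against 42.3 and 31.9), and Flt3 overlapped. In the Sirpa+ DCs Xcr1 was at 84.6 and 69.8 CPM and Clec9a at 322 and 237. The list does not separate conventional DC subsets, and which subset these reads came from was not tested. Sums over some markers of other cells differed with the sort. The sum over 12 T cell and thymocyte markers was 567 to 707 CPM in pDCs against 165 and 166. Cd4 led it in all but PBS pDC replicate 1, where Cd8b1 led. Cd4, Cd8a, Cd8b1 and Lck were higher in every pDC library than in both Sirpa+ DC libraries. Cd3d, Cd3e, Rag1, Rag2, Themis and Bcl11b had 0 to 8 counts in each library, and Cd3g and Ptcra were at 0 in all 6 libraries. Which cells these reads came from was not tested. The sum over 8 B cell markers was 628 to 784 CPM against 38.1 and 19.9. The sum over 9 monocyte and macrophage markers was 3563 and 5901 CPM in the Sirpa+ DCs, 1697 and 816 in the YG+ pDCs, and 906 and 405 in the PBS pDCs. Lyz2 led it in the Sirpa+ DCs and in YG+ pDC replicate 1. Ly6c2, which also marks pDCs, led it in the other 3 pDC libraries, at 249 to 631 CPM, and was at 12.7 and 41.9 in the Sirpa+ DCs. The NK, erythroid and thymic stromal lists summed to 23.9 to 160 CPM, with Klrb1c, Hba-a1, Hba-a2, Foxn1 and Col1a1 at 0 in all 6 libraries.

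As a whole, the 40 genes took 0.192% to 0.270% of the gene counts of a library. The share was 0.270% (95% Wilson interval 0.259 to 0.283) and 0.241% (0.228 to 0.254) in the YG+ pDCs. It was 0.195% (0.176 to 0.217) and 0.243% (0.229 to 0.259) in the PBS pDCs. It was 0.192% (0.175 to 0.209) and 0.209% (0.197 to 0.222) in the PBS Sirpa+ DCs. On TMM-scaled totals, the summed level of the members was 2711 and 2435 CPM in YG+ pDCs, 2213 and 2330 in PBS pDCs, and 2116 and 2193 in Sirpa+ DCs. Means were 2573 ± 195 (SD, n = 2), 2272 ± 82.7 and 2154 ± 54.7 CPM. The YG+ pDC libraries were above both PBS pDC libraries on this scale, but on plain gene totals the second YG+ pDC library, at 2407 CPM, was below the second PBS pDC library, at 2433.

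**Figure D1:**
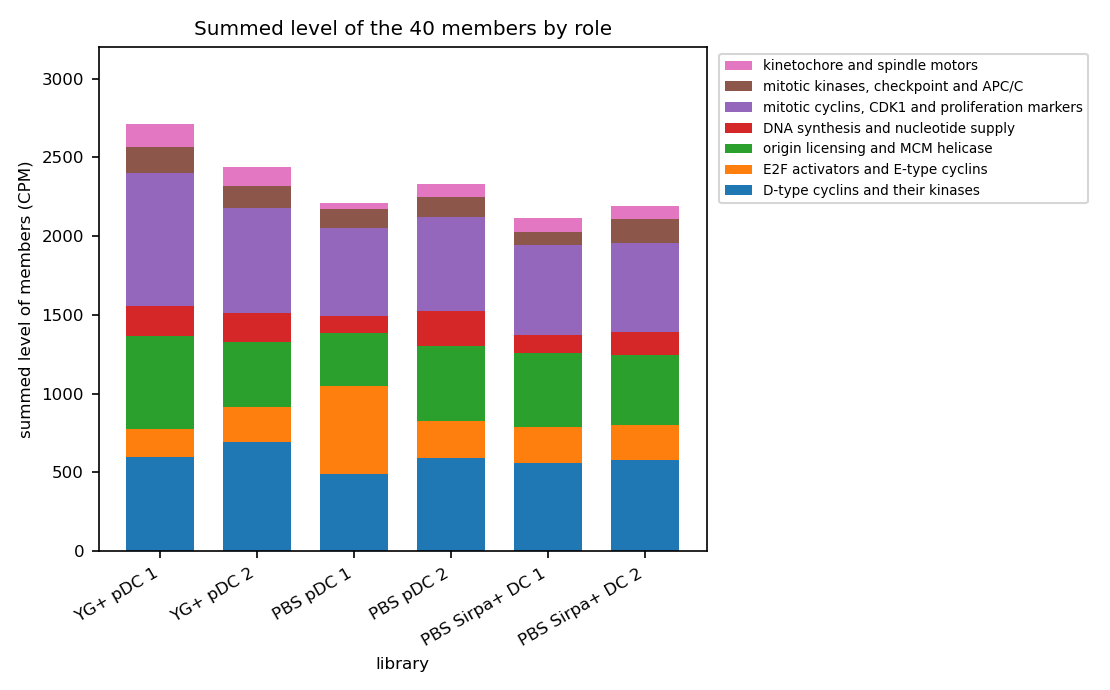
Summed level of the 40 members in CPM (TMM-scaled totals) in each of the 6 libraries, stacked by role group. The bars stand between 2116 and 2711 CPM, and the E2F and E-type cyclin block is widest in PBS pDC replicate 1, at 555 CPM.

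The make-up of that sum differed in 1 library. In PBS pDC replicate 1 the E2F and E-type cyclin group summed to 555 CPM, against 178 to 234 in the other 5 libraries, and the kinetochore and spindle group summed to 38.3 CPM, against 81.0 to 148. The members were also summed by whether an antisense gene has exons in the same place. For the 27 members with no such overlap in GENCODE M21, the sum was 829 CPM in PBS pDC replicate 1 and 1138 to 1739 in the other libraries. For the 13 members with an overlap it was 1384 CPM against 972 to 1047. In PBS pDC replicate 1 Ccne2 was at 517 CPM and Ccna2 at 262, against 118 to 187 and 85.9 to 138 in the other libraries. The higher sum rests on Ccne2 and Ccna2 and is not shared by the overlapped members as a set. In 6 members, antisense exons cover more than 10% of the exon length: Gins2 (67.3%, under Gse1), Ccnd1 (23.4%), Ube2c (22.8%), Cdk4 (19.7%), Ccne2 (17.4%, under Ints8) and Ccna2 (12.5%, under Exosc9). The sources used here do not say if the counting used strand, so reads of these genes and their partners cannot be told apart.

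**Figure D2:**
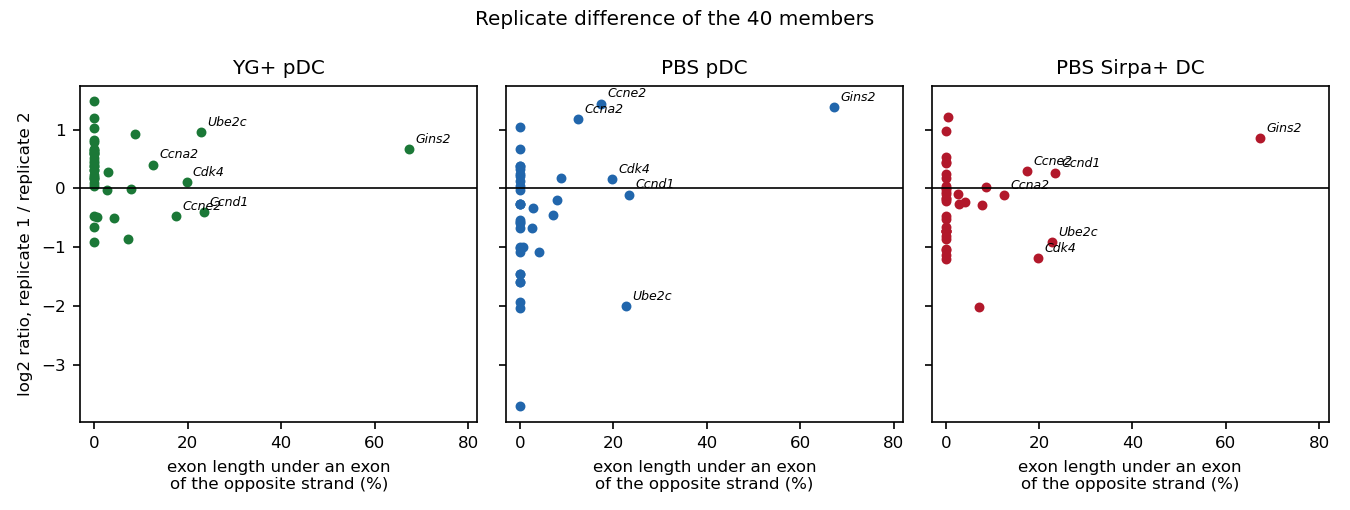
Each point is 1 of the 40 members in 1 group. The x axis is the percent of its exon length covered by antisense exons, and the y axis is the log2 ratio of replicate 1 to replicate 2 (CPM with a prior count of 2). In the PBS pDCs the 27 members with no overlap have a median of -0.54, and Ccne2, Ccna2 and Gins2 stand at 1.44, 1.17 and 1.38. Cdk4, Ccnd1 and Ube2c stand at 0.15, -0.11 and -2.00 there.

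The replicate ratios come from the same counts as the sums above and are not separate support. In the PBS pDCs, the median log2 ratio of replicate 1 to replicate 2 was -0.54 over the 27 members with no overlap, of which 9 were higher in replicate 1. It was 0.66 over the 6 members with more than 10% overlap, of which 4 were higher. Gins2 among them rests on 4 and 3 counts. Of the members with an overlap of 10% or less, Mcm7 was at 0.19. Ccnd2, Ccnd3, Cdk6, Cdk2, Plk1 and Cdc20 were at -1.07 to -0.20, on the side of the members with no overlap. In the YG+ pDCs the corresponding medians were 0.43 and 0.26, and in the Sirpa+ DCs -0.22 and 0.07. Among the genes opposite the 6 members, Ints8 and Exosc9 were highest in PBS pDC replicate 1, but Gse1, Tspan31 and Oraov1 were not. Gse1 was at 128 CPM there and 144 in Sirpa+ DC replicate 1. Tspan31, opposite Cdk4, was at 95.7 CPM there and 102 in Sirpa+ DC replicate 2. Oraov1 (LTO1), opposite Ccnd1, was at 6.38 CPM there and 21.2 in Sirpa+ DC replicate 1. Tnnc2, opposite Ube2c, had 1 count there and 0 elsewhere. Whether the replicate differences come from reads of the other strand was not tested.

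**Figure D3:**
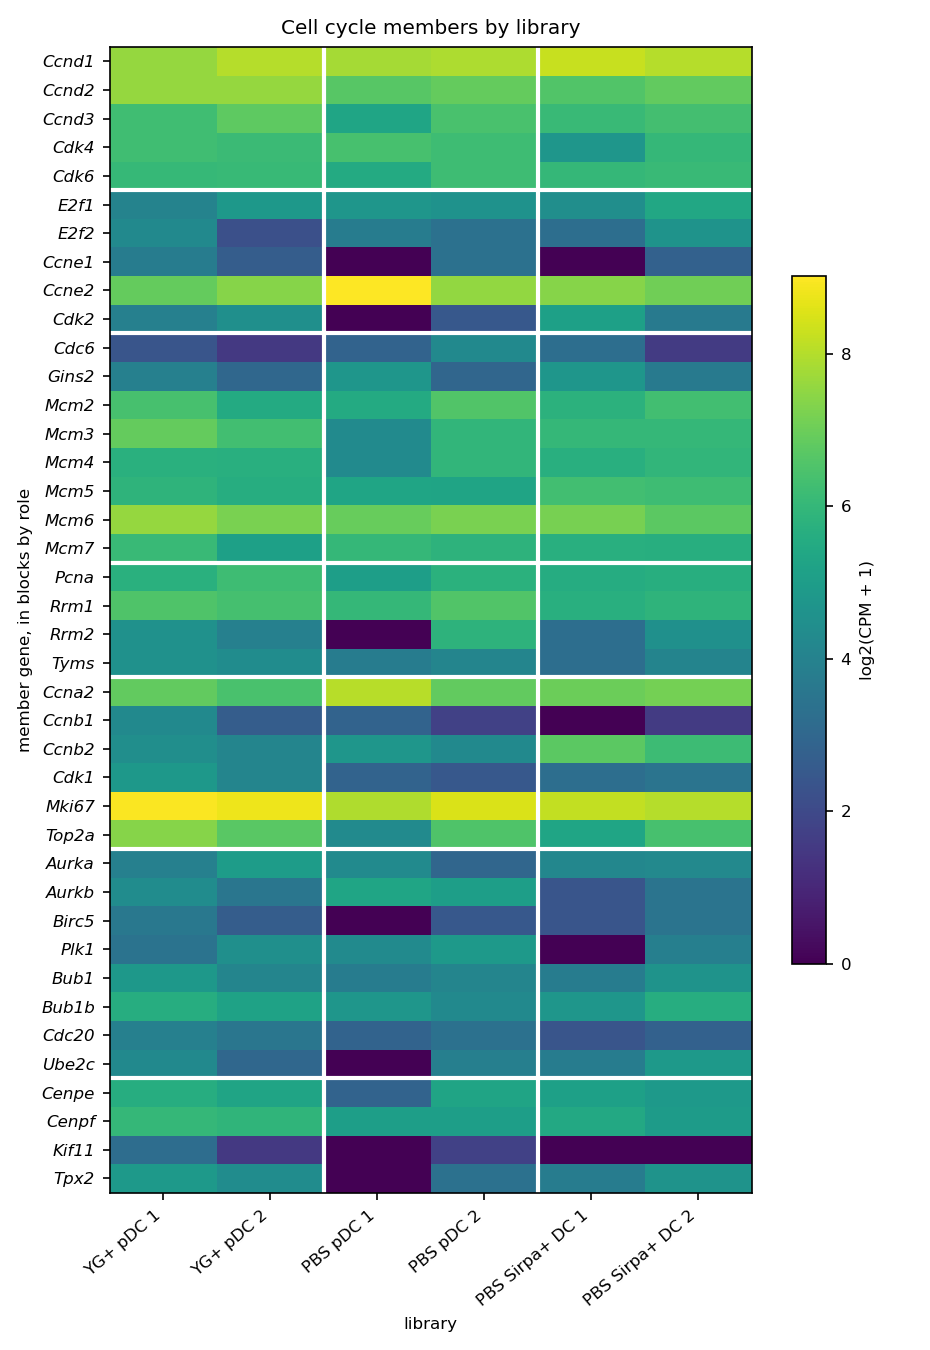
Level of each of the 40 members (rows, in blocks by role) in each library (columns), as log2 of CPM plus 1. Mki67, Ccnd1 and Ccne2 are bright in every library, and dark cells, members at 0, fall in PBS pDC replicate 1 (7 members), PBS Sirpa+ DC replicate 1 (4) and PBS Sirpa+ DC replicate 2 (1).

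The D-type cyclins and their kinases, which act at the start of the cycle and are also expressed in resting cells, were detected in every library. Ccnd1, which encodes cyclin D1, was at 194 and 258 CPM in YG+ pDCs, 223 and 241 in PBS pDCs, and 309 and 257 in Sirpa+ DCs. Ccnd2, for cyclin D2, was at 190 and 192 CPM in YG+ pDCs, 102 and 118 in PBS pDCs, and 93.1 and 114 in Sirpa+ DCs. Both YG+ pDC libraries were above all 4 PBS libraries for Ccnd2, while Ccnd1 overlapped between the pDC groups. Per kilobase of exon, the mean Ccnd1 level was 47.9, 49.3 and 60.1 CPM in YG+ pDCs, PBS pDCs and Sirpa+ DCs, and that of Ccnd2 was 20.3, 11.7 and 10.99. Ccnd3 ranged over all libraries from 38.3 to 109 CPM, the kinase gene Cdk4 from 25.4 to 82.9 and its paralog Cdk6 from 44.7 to 74.1.

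Of the E2F and E-type cyclin genes, Ccne2 stood above the rest, with a mean of 40.4, 100.7 and 42.7 CPM per kilobase in YG+ pDCs, PBS pDCs and Sirpa+ DCs, against 6.70 to 9.99 for E2f1. Ccne2, for cyclin E2, the partner of CDK2 at the entry into S phase, was at 118 and 165 CPM in YG+ pDCs, 517 and 187 in PBS pDCs, and 165 and 134 in Sirpa+ DCs. The high value is that of PBS pDC replicate 1 alone. It rests on 81 counts, the same number as in PBS pDC replicate 2, which has more than double the depth. Ints8, whose exons cover part of Ccne2, was also highest in that library, at 223 CPM against 122 to 169. E2f1, a transcription factor that turns on S phase genes, ranged from 15.5 to 41.9 CPM. E2f2 had 2 to 13 counts, Ccne1 0 to 9 and Cdk2 0 to 12, and Ccne1 and Cdk2 were both at 0 in PBS pDC replicate 1.

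The MCM genes, which encode the 6 subunits of the replicative helicase, were read in all 6 libraries at 19.1 CPM or more. The lowest values, of Mcm3 and Mcm4 in PBS pDC replicate 1, rest on 3 counts each. That is the level at which a gene with no count could stand in that library. Mcm6 had the highest level per kilobase in each group, with 192 and 147 CPM in YG+ pDCs, 121 and 146 in PBS pDCs, and 144 and 106 in Sirpa+ DCs, which is 36.3, 28.6 and 26.7 CPM per kilobase on average. Mcm3 was at 118 and 76.9 CPM in YG+ pDCs, 19.1 and 60.2 in PBS pDCs, and 63.5 and 63.8 in Sirpa+ DCs. Mcm5 was at 57.6 and 48.3, 38.3 and 37.0, and 76.2 and 73.8 CPM in the same order, so its 3 groups did not overlap. The loading factor gene Cdc6 had 1 to 8 counts, and Gins2, a subunit of the active helicase complex, 3 to 10.

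Genes for DNA synthesis were at moderate levels. Pcna, which encodes the sliding clamp of the DNA polymerases, was at 52.0 and 73.4 CPM in YG+ pDCs, 31.9 and 53.2 in PBS pDCs, and 46.6 and 49.8 in Sirpa+ DCs. Rrm1, the large subunit of ribonucleotide reductase, ranged from 50.8 to 94.9 CPM. Rrm2, the small subunit that limits the enzyme to S phase, was at 0 in PBS pDC replicate 1 and at 55.5 CPM in replicate 2, so the PBS pDC libraries spanned the values of both other groups. Tyms, for thymidylate synthase, had 2 to 16 counts.

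The mitotic cyclins and proliferation markers spanned a wide range of levels. Mean levels per kilobase in YG+ pDCs, PBS pDCs and Sirpa+ DCs were 46.6, 30.1 and 27.4 CPM for Mki67 and 2.80, 1.03 and 0.236 for Ccnb1. Mki67, which encodes the Ki-67 protein that coats mitotic chromosomes, was at 499 and 438 CPM in YG+ pDCs, 242 and 363 in PBS pDCs, and 292 and 259 in Sirpa+ DCs. Top2a, for the topoisomerase that untangles sister chromatids, was at 164 and 104, 19.1 and 92.6, and 38.1 and 83.7 CPM in the same order. Its 19.1 CPM in PBS pDC replicate 1 rests on 3 counts. For both genes the YG+ pDC libraries lay above all 4 PBS libraries. Ccna2, for cyclin A2, was at 115 and 85.9 CPM in YG+ pDCs, 262 and 113 in PBS pDCs, and 127 and 138 in Sirpa+ DCs. As with Ccne2, its highest value was in PBS pDC replicate 1, where its opposite-strand neighbour Exosc9 was also highest (281 CPM, against 102 to 233). Cdk1, the kinase that drives entry into mitosis, had 1 to 19 counts and its partner Ccnb1 0 to 13. Both were highest in YG+ pDC replicate 1, with 26.7 and 18.3 CPM, and neither passed the filter.

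Mitotic kinases, checkpoint genes and kinetochore genes were low throughout. Bub1b, for the checkpoint protein BubR1, was at 47.8 and 35.8 CPM in YG+ pDCs, 25.5 and 18.5 in PBS pDCs, and 25.4 and 47.9 in Sirpa+ DCs. Aurkb, the Aurora kinase of the chromosomal passenger complex, was at 19.7 and 10.7, 38.3 and 32.4, and 4.23 and 9.97 CPM in the same order, on 1 to 14 counts. Aurka had 3 to 17 counts, Plk1 0 to 12, Birc5 0 to 8, Cdc20 1 to 10 and Ube2c 0 to 14. Cenpf, a kinetochore protein, was at 63.2 and 59.1, 31.9 and 32.4, and 42.3 and 29.9 CPM. Tpx2, which activates Aurora A on the spindle, had 20 and 11 counts in YG+ pDCs, 0 and 4 in PBS pDCs, and 3 and 12 in Sirpa+ DCs. Kif11, the motor that separates spindle poles, had 6 and 1 counts in YG+ pDCs, 0 and 1 in PBS pDCs, and 0 in both Sirpa+ DC libraries, a total that allows up to 4.07 CPM over that group.

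The first comparison, PBS pDCs against PBS Sirpa+ DCs, asks how the cell cycle genes differ between these DC subsets in PBS-treated mice. Of the 27 tested members, 1 was called at an adjusted p under 0.05 (edgeR quasi-likelihood test, Benjamini-Hochberg over 8141 genes): Ccnb2, which was lower in the pDCs. No member was called higher. Among all tested genes, 4.54% were called higher and 6.89% lower in the PBS pDCs. Ccnb2 encodes cyclin B2, a partner of CDK1 in mitosis. Its level was 25.5 and 18.5 CPM in PBS pDCs (4 and 8 counts), 105.8 and 71.8 in Sirpa+ DCs (25 and 36 counts), and 21.1 and 16.1 in YG+ pDCs (15 and 9 counts). Every pDC library was below both Sirpa+ DC libraries. Ccnb2 passed the filter on low counts through its level in the Sirpa+ DCs, the group where it was high. Means were 22.01 ± 4.95 CPM (SD, n = 2) in PBS pDCs and 88.8 ± 24.1 in Sirpa+ DCs, and the log2 fold change was -2.04 ± 0.57 (SE, 95% interval -3.30 to -0.79), with adjusted p = 0.0406. Ccnb2 lies at chr9:70407692-70421547 on the minus strand (GRCm38, ENSMUSG00000032218.7) with no exon under the other strand.

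The call on Ccnb2 was lost in DESeq2 (adjusted p = 0.0857), when only the 4 PBS libraries were fitted (0.0870) and with the replicate number as a block (0.05002). It was also lost without YG+ pDC replicate 1 (0.0709), YG+ pDC replicate 2 (0.0685), PBS pDC replicate 2 (0.115), Sirpa+ DC replicate 1 (0.184) or Sirpa+ DC replicate 2 (0.107), with the log2 fold change between -2.29 and -1.77. Of the 9 monocyte and macrophage markers, 8 were higher in both of these Sirpa+ DC libraries than in both PBS pDC libraries and 1, Ly6c2, was lower, and their part in the Ccnb2 difference was not tested. The annotation holds a processed pseudogene, Ccnb2-ps on chromosome 8, which has no row in the count files, and the sources used here do not say how reads with several matches were treated. The related B-type cyclin Ccnb1 had 1 and 1 counts in PBS pDCs and 0 and 1 in Sirpa+ DCs.

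The promoters of the B-type cyclin genes are shown because Ccnb2 is the member called and Ccnb1 is its near relative at the edge of detection. Both windows are the 250 bases before the RefSeq transcription start (GRCm38.p6) on the minus strand, at chr9:70421555-70421804 for Ccnb2 and chr13:100786487-100786736 for Ccnb1. The annotations differ for Ccnb1: its GENCODE M21 gene starts 84 bases farther upstream, at base 100786570. The part of that window inside the GENCODE gene is not printed, which leaves the 166 bases at chr13:100786571-100786736. Capitals mark the CCAAT box, bound by the factor NF-Y, and 6 letters that match the cell cycle homology region (CHR), a promoter element of mitotic genes.
Ccnb2: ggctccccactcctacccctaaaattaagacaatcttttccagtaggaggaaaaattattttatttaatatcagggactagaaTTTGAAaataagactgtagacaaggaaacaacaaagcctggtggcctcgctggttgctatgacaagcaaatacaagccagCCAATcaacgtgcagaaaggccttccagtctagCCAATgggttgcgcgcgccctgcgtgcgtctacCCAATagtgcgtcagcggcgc
Ccnb1: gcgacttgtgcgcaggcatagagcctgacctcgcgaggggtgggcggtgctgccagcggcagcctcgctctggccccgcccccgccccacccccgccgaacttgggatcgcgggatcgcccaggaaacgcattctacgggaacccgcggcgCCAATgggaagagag
Ccnb2 holds 3 CCAAT boxes and a TTTGAA that begins 167 bases before the RefSeq start. This TTTGAA lies farther from the start than all 3 CCAAT boxes. The whole Ccnb1 window holds 2 CCAAT boxes, 1 of them in the printed bases, and a TTTAAA that begins 42 bases before the RefSeq start and so lies inside the GENCODE gene. A promoter was matched for 32 of the 40 members, all but Aurkb, Ccna2, Ccnd1, Ccnd2, Ccne2, Gins2, Mcm4 and Tpx2. Searched on both strands, CCAAT was in 25 of the 32 (78.1%), beside 37.5% of 27025 genes with a window of the same length. The CHR letters TTTGAA or TTTAAA were in 15 (46.9%, beside 28.1%). The E2F letters TTTCGCGC, TTTGGCGC or TTTCCCGC were in 6 (18.8%, beside 1.78%). A match is a description of letters, not of a bound site.

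**Figure D4:**
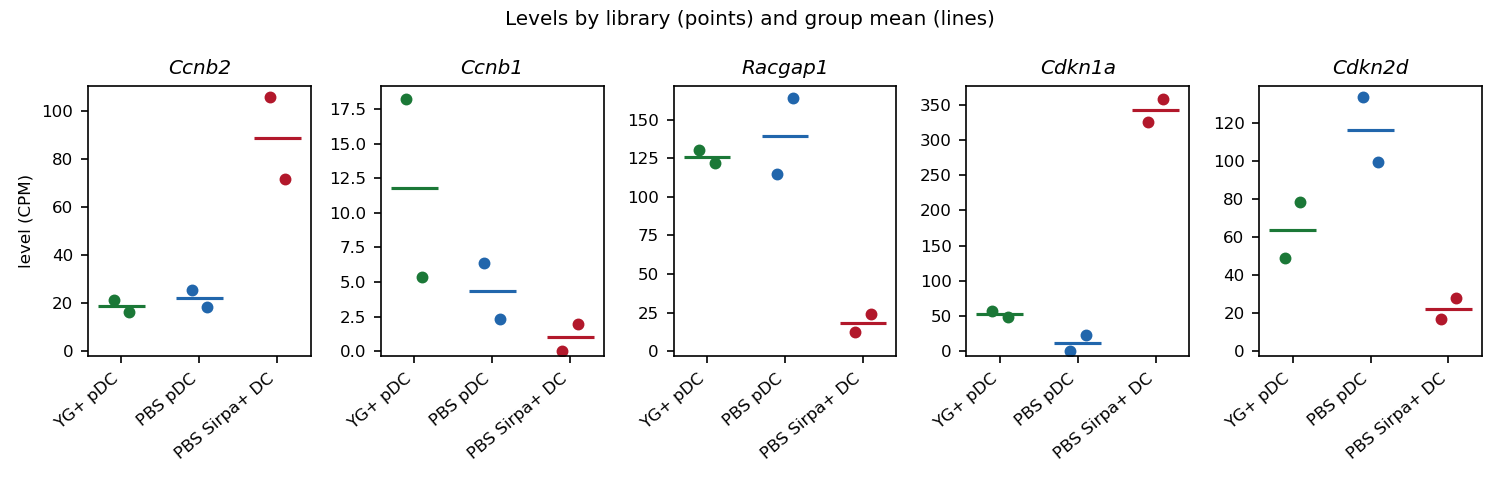
Level in CPM (y axis, a separate scale for each gene) of the members Ccnb2 and Ccnb1 and of the cell cycle genes Racgap1, Cdkn1a and Cdkn2d, which are not members. Points are libraries and lines are group means of 2 libraries, and Ccnb2 and Cdkn1a are highest in both Sirpa+ DC libraries while Racgap1 and Cdkn2d are lowest there.

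The other tested members spread to both sides in this comparison. Their log2 fold changes had a median of -0.11, with 11 above and 16 below 0, beside a median of 0.08 over all 8141 genes. The sign of the members' median changed without PBS pDC replicate 1 (0.14) and also without Sirpa+ DC replicate 2 (0.0016). Without PBS pDC replicate 2 the median was -0.56. The groups did not overlap for 5 members that were higher in pDCs (Cdk4, Ccne2, Mcm7, Rrm1 and Aurkb; 18.5% of those tested, beside 22.9% of all genes) and for 5 that were lower (Ccnd1, Mcm3, Mcm5, Ccnb2 and Tpx2; beside 24.2%). Aurkb had the highest estimate, at 2.10 ± 0.81 (SE), with adjusted p = 0.131. It passed the filter on low counts through its level in the PBS pDCs, where it was high. Ccne2 followed at 1.21 ± 0.52 (adjusted p = 0.180). Without PBS pDC replicate 2, which leaves the library with the high Ccne2 value alone in its group, Ccne2 was called (1.76, adjusted p = 0.0113). Mcm5 was the next lowest of those with a value in every library after Ccnb2, at -0.99 ± 0.48 (adjusted p = 0.234). The unadjusted 95% interval of a member reached a median of 1.15 log2 units to each side. A call after adjustment needs a difference larger than a member's own reach, so smaller ones were not detectable with these libraries.

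**Figure D5:**
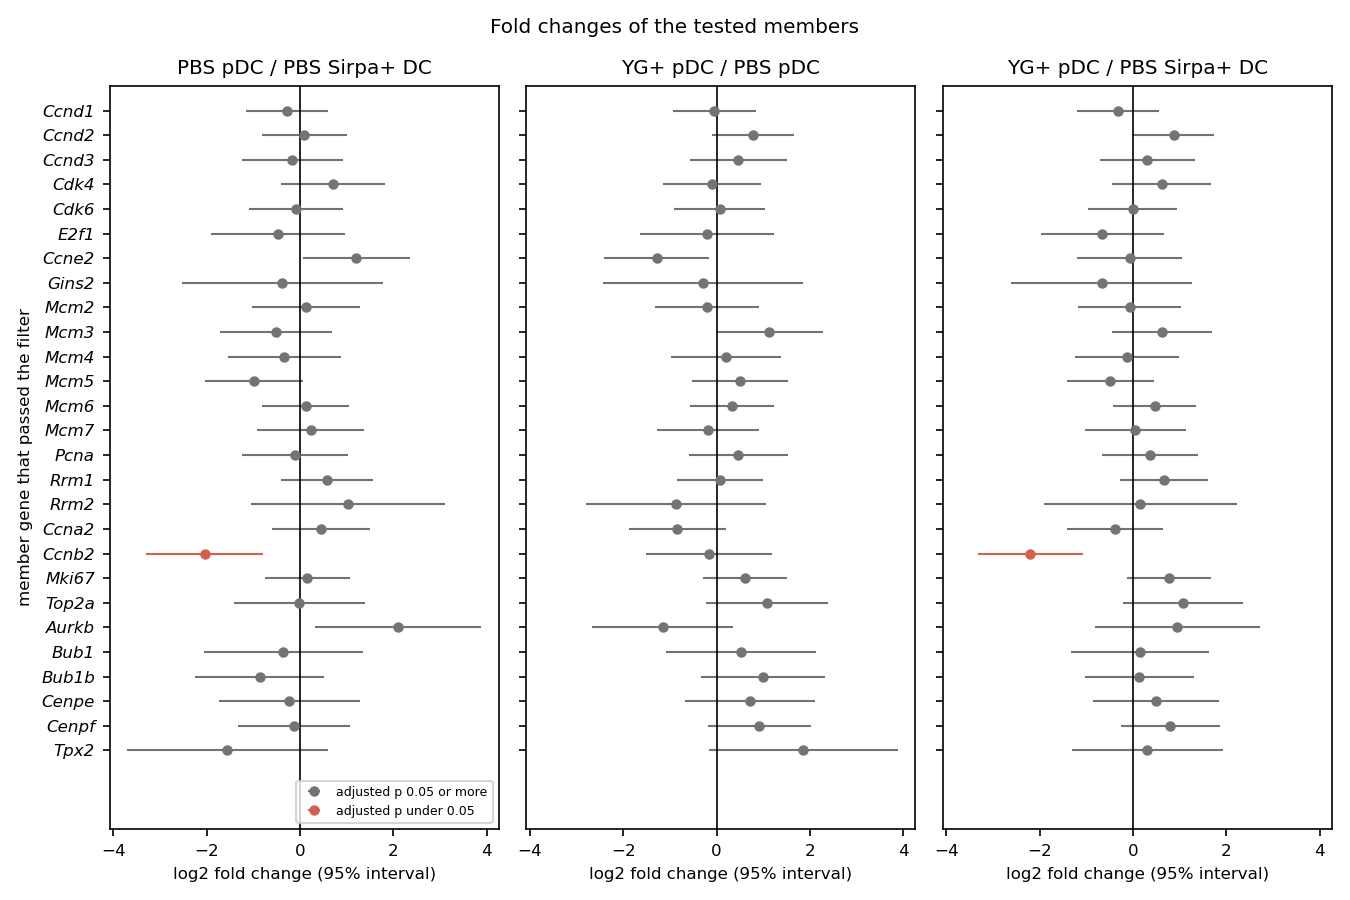
Log2 fold change (x axis) with its 95% interval for the 27 tested members (rows) in the 3 comparisons, from the edgeR fit over all 6 libraries. Ccnb2, in red, is the only member with an adjusted p under 0.05, at -2.04 and -2.20 in the comparisons with Sirpa+ DCs, and no member is past it between the pDC groups.

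The second comparison sets the YG+ pDCs against the PBS pDCs. No member was called in either direction, and of all 8141 genes 0% were called higher and 0% lower by edgeR. At an unadjusted p under 0.05 there were 929 genes, 11.4% of those tested, and 1 member, Ccne2. DESeq2 called 45 genes and limma-voom called 0, in each case with 0 members. Several proliferation genes had higher values in both YG+ pDC libraries than in both PBS pDC libraries. These were Ccnd2, Mcm3, Mcm5, Mcm6, Mki67, Top2a, Bub1b, Cenpe, Cenpf and Tpx2, 10 of the 27 tested (37.0%), beside 26.5% of all tested genes. Ccne2 and Aurkb were lower without overlap (7.41%, beside 19.3%).

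None of these differences was past the spread between libraries after adjustment. Mki67 had a log2 fold change of 0.61 ± 0.41 (SE, 95% interval -0.28 to 1.51; adjusted p = 0.610), and Top2a of 1.09 ± 0.60 (adjusted p = 0.526). Tpx2 had the highest estimate, 1.86 ± 0.92 (adjusted p = 0.470), and Mcm3 had 1.13 ± 0.52 (adjusted p = 0.441). Cenpf was at 0.92 ± 0.50 (adjusted p = 0.525) and Ccnd2 at 0.78 ± 0.40 (adjusted p = 0.491). On the other side, Ccne2 was at -1.28 ± 0.51 (adjusted p = 0.378) and Ccna2 at -0.84 ± 0.47 (adjusted p = 0.543). Ccnb2, called in both comparisons with the Sirpa+ DCs, had an estimate of -0.16 ± 0.61 here, with a 95% interval of -1.50 to 1.18.

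Over the 27 tested members the median log2 fold change between YG+ and PBS pDCs was 0.20, beside 0.08 over all genes, with 16 above 0 and 11 below. Over the 18 tested members without antisense exons, a split added after the data had been seen, it was 0.48. The values turned on PBS pDC replicate 1. With that library alone standing for the PBS pDCs, 870 genes were called, with Top2a higher (2.84, adjusted p = 0.0379) and Ccne2 lower (-1.84, adjusted p = 0.0111) in the YG+ pDCs. With PBS pDC replicate 2 alone, 3 genes were called, no member passed, and the estimates were 0.53 for Top2a and -0.42 for Ccne2. The summed monocyte and macrophage markers overlapped between the pDC groups, but of the 9 markers 7 were higher in both YG+ pDC libraries (Csf1r, C1qa, C1qb, C1qc, Adgre1, Lyz2 and Mertk) and 1, Ly6c2, was lower in both. Lyz2 was at 559 and 229 CPM against 134 and 27.8, and Csf1r, the receptor for the macrophage growth factor, at 184 and 100.2 against 25.5 and 11.6. Ly6c2 was at 201 and 249 CPM against 631 and 319. T cell and thymocyte markers were at 568 and 707 CPM against 568 and 618. The ribosomal precursor Rn45s was also higher in both YG+ pDC libraries (12.7% and 10.6% of gene counts, against 3.69% and 7.90%), as were the nuclear transcripts Malat1 (1.80% and 1.88%, against 0.671% and 1.55%) and Neat1. The part of these cells and transcripts in the members' values was not tested.

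The third comparison, YG+ pDCs against PBS Sirpa+ DCs, differs in treatment as well as in cell type. It shares the Sirpa+ DC libraries with the first comparison and the YG+ pDC libraries with the second. Ccnb2 was again the 1 member called, lower in the pDCs at a log2 fold change of -2.20 ± 0.51 (SE, 95% interval -3.33 to -1.08) with adjusted p = 0.0250. Of all tested genes, 3.07% were called higher and 4.09% lower. The Ccnb2 call held in DESeq2, limma-voom, the 4-library fit and the block fit, where the adjusted p was at most 0.0302. It was lost without YG+ pDC replicate 1 (adjusted p = 0.161), YG+ pDC replicate 2 (0.313), Sirpa+ DC replicate 1 (0.176) or Sirpa+ DC replicate 2 (0.0852).

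Of the other members, 11 were higher in both YG+ pDC libraries than in both Sirpa+ DC libraries, 40.7% of those tested, beside 32.8% of all genes. They were Ccnd2, Cdk4, Mcm3, Mcm6, Pcna, Rrm1, Mki67, Top2a, Aurkb, Cenpe and Cenpf. Mcm5, Ccna2 and Ccnb2 were lower without overlap (11.1%, beside 29.1%). Ccnd2 had the smallest adjusted p of the higher genes, 0.217, at a log2 fold change of 0.87 ± 0.39 (SE). Mki67 was at 0.77 ± 0.41 (adjusted p = 0.296) and Top2a at 1.07 ± 0.58 (adjusted p = 0.306). The median over the 27 members was 0.16, beside 0.04 over all genes. Rn45s, Malat1, Neat1 and Xist were also higher in both YG+ pDC libraries than in both Sirpa+ DC libraries, and their part in these values was not tested.

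Of 134 further genes of the same pathways, in 9 lists, 89 were tested, and those that passed split between both directions. In PBS pDCs against Sirpa+ DCs, 3 were higher (Cdkn2d, Cdc7 and Racgap1) and 2 lower (Cdkn1a and Tfdp2). These are 3.37% and 2.25% of the 89, beside 4.54% and 6.89% of all genes, and the median log2 fold change over the 89 was 0.18. Between YG+ and PBS pDCs none passed in edgeR, DESeq2 or limma-voom, 3 had an unadjusted p under 0.05 in edgeR (Cdkn1a, Espl1 and Ccnt1), and the median was 0.03. In YG+ pDCs against Sirpa+ DCs, 2 were higher (Racgap1 and Ccnt1) and 4 lower (Cdkn1a, Tfdp2, Rfc5 and Tk1), with a median of 0.31. These are 2.25% and 4.49% of the 89, beside 3.07% and 4.09% of all genes.

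Cdkn1a encodes p21, an inhibitor of the cyclin-dependent kinases that is induced by p53. It was at 57.6 and 48.3 CPM in YG+ pDCs, 0 and 23.1 in PBS pDCs, and 326 and 359 in Sirpa+ DCs. The Sirpa+ DC libraries were far above the others, with a log2 fold change of -4.44 ± 0.66 (SE) for PBS pDCs against them (adjusted p = 0.00217) and of -2.68 ± 0.53 for YG+ pDCs (adjusted p = 0.0132). The first of these calls held without any 1 library, with adjusted p at most 0.0270. The second was lost without either YG+ pDC library or either Sirpa+ DC library, with adjusted p of 0.0612 to 0.115. Cdkn2d, for p19INK4d, an inhibitor of CDK4 and CDK6, had the opposite order, with 49.2 and 78.7 CPM in YG+ pDCs, 134 and 99.5 in PBS pDCs, and 16.9 and 27.9 in Sirpa+ DCs. Its log2 fold change in PBS pDCs was 2.27 ± 0.52 (adjusted p = 0.0188), and the call was lost without Sirpa+ DC replicate 1 (adjusted p = 0.129) or replicate 2 (0.0993).

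Racgap1, a GTPase-activating protein of the central spindle that is needed for cytokinesis, was at 131 and 122 CPM in YG+ pDCs, 115 and 164 in PBS pDCs, and 12.7 and 23.9 in Sirpa+ DCs. Each pDC library was above both Sirpa+ DC libraries, by a log2 fold change of 2.84 ± 0.51 (SE) in PBS pDCs (adjusted p = 0.00548) and 2.67 ± 0.49 in YG+ pDCs (adjusted p = 0.00989). Without Sirpa+ DC replicate 1 the adjusted p was 0.0604 and 0.121, and without replicate 2 it was 0.0508 and 0.0736. Racgap1 and Ccnb2, both genes of mitosis, thus differed in opposite directions between these libraries.

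Tk1, the thymidine kinase of the S phase salvage pathway, was at 212 and 267 CPM in YG+ pDCs, 702 and 292 in PBS pDCs, and 1591 and 582 in Sirpa+ DCs. The replicates of both PBS groups differed more than 2-fold, and the log2 fold change for YG+ pDCs against Sirpa+ DCs was -2.18 ± 0.59 (SE, adjusted p = 0.0475). Rfc5, a subunit of the clamp loader with 10.7% of its exon length covered by Wsb2, had -1.66 ± 0.43 in that comparison (adjusted p = 0.0412). Tfdp2, the DNA-binding partner of the E2Fs, was lower in both pDC groups, at -2.37 ± 0.58 in PBS pDCs (adjusted p = 0.0245) and -2.02 ± 0.50 in YG+ pDCs (adjusted p = 0.0335). Cdc7, the kinase that fires origins, was at 18.3 and 19.7 CPM in YG+ pDCs, 31.9 and 46.3 in PBS pDCs, and 0 and 5.98 in Sirpa+ DCs. Its log2 fold change in PBS pDCs was 3.29 ± 0.90 (adjusted p = 0.0374). Ccnt1, a cyclin of the transcription elongation kinase CDK9 rather than of the cycle, was higher in YG+ pDCs than in Sirpa+ DCs at 2.22 ± 0.58 (adjusted p = 0.0417).

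Most of these calls did not hold in every fit. Tk1, Rfc5, Ccnt1 and the YG+ pDC difference of Tfdp2 lost the call without either YG+ pDC library or either Sirpa+ DC library, with adjusted p of 0.0775 to 0.557. The PBS pDC difference of Tfdp2 was lost without PBS pDC replicate 2 or either Sirpa+ DC library (0.0909 to 0.124), and in the 4-library fit (0.0541). Cdc7 kept its call without PBS pDC replicate 1 and lost it without any other 1 library (0.0854 to 0.151). Cdc7 was not past the threshold in DESeq2 (0.0672), nor Ccnt1 in DESeq2 (0.107) or limma-voom (0.0575). In the lists with no gene past the threshold, the smallest p among checkpoint kinases was that of Atm, for the kinase that senses DNA breaks (PBS pDCs against Sirpa+ DCs, adjusted p = 0.111). Among cohesin and condensin genes it was that of Smc4, a condensin subunit (YG+ pDCs against Sirpa+ DCs, adjusted p = 0.0906).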

How the data were processed

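The authors deposited 1 table per library with raw counts of reads per gene symbol, followed by 5 summary lines that name no gene and hold 97.7% to 99.5% of the reads. These lines were left out of totals and tests. Per the submitters' processing notes, bcl2fastq 2.17 was used and the build was mm10. The sources used here name neither the aligner nor the counter and its strand setting. Libraries were made with the Ovation SoLo kit from TRIzol RNA, per the labels' protocols.

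The counts of all 6 libraries entered 1 edgeR 4.0.16 quasi-likelihood fit in R 4.3.3 with a mean per group, filterByExpr and TMM scaling. This left 8141 genes, a biological coefficient of variation of 33.0% and 3 residual degrees of freedom. P-values were adjusted by Benjamini-Hochberg over all genes tested, with a threshold of 0.05, and the test was two-sided. CPM were computed on TMM-scaled totals, log2 fold changes are those of the fit, and intervals are at 95%. Coordinates, exon lengths and overlaps come from GENCODE M21 (GRCm38), to which 93.0% of the symbols matched. DESeq2 1.42.0, limma 3.58.1, other scalings and filters, and fits without 1 library each were alternatives.

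The members and gene lists were chosen with earlier results of these data known. All 40 members may be named. Of the other pathway lists, named genes are those past the threshold in any comparison or, in a list with none, that with the smallest p. Of marker lists, they are genes at 0 throughout and the highest gene. Genes such as Siglech, Csf1r, Ly6c2, Ints8 and Exosc9 were named after their values were seen. The main fit did not pair samples by the numbers in their titles. Deviations of same-numbered libraries from their group means correlated at -0.12 and -0.10 for YG+ pDCs with PBS pDCs and with Sirpa+ DCs. The correlation was 0.30 for the PBS groups with each other. With 2 libraries per group, these values cannot decide if same-numbered libraries belong together.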

Additional observations from a re-analysis of the deposited data

How the results depend on the processing

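The alternatives gave 426 values of 28 gene results, and only results called in the main fit could lose a call. Of the 426 values, 2 changed direction, 50 lost the call and 3 gained one. The 2 are Ccnb2 between the pDC groups, at 0.030 without YG+ pDC replicate 2 and 0.011 without PBS pDC replicate 1, in a range of -0.40 to 0.030 over fits without 1 library. Leaving out 1 library gave 214 to 1297 called genes, 0 to 1 called members and a member median of -0.56 to 0.14 for PBS pDCs against Sirpa+ DCs. For YG+ against PBS pDCs these were 0 to 870, 0 to 2 and 0.17 to 0.67. For YG+ pDCs against Sirpa+ DCs they were 69 to 1487, 0 to 1 and 0.075 to 0.43. Where a library is left out, the lone library of its group is assumed to vary like the others. In the first comparison, fitting only the 4 libraries called 580 genes in place of 931 and 0 members, and DESeq2 called 0 members. Between the pDC groups, no filter on low counts called 141 genes and DESeq2 45, in place of 0. The member median there was 0.53 with no filter, 0.46 with a filter at 10 CPM and 0.48 over members without opposite-strand exons. Against Sirpa+ DCs, YG+ pDCs had 894 called genes with no filter and 1480 in the 4-library fit, in place of 583. The cause of these shifts was not tested. Without Rn45s, Malat1, Xist and Tsix the summed member level was 3007 CPM (YG+ pDCs), 2443 (PBS pDCs) and 2244 (Sirpa+ DCs). On plain totals it was 2004 for the Sirpa+ DCs.

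The replicate block, which pairs libraries by title number, called 942, 0 and 635 genes and 0, 0 and 1 members in the 3 comparisons. The 1 member call it changed is Ccnb2 in the first, at an adjusted p of 0.05002. With the YG+ numbers exchanged, a pairing added after the data were seen, 294 genes were called between the pDC groups. Depth limits all of this: 5 to 31 members had under 10 counts in a library.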
